A study of Mus musculus with 9 samples.

Results

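The genes described here are the matrix metalloproteinases (MMPs), the ADAMTS proteases (a disintegrin and metalloproteinase with thrombospondin motifs), the ADAMTS-like proteins and the tissue inhibitors of metalloproteinases (TIMPs) of mouse skin. They were taken by a rule on the gene symbol, and 51 of the 49585 genes in the deposited tables matched: 23 MMP, 19 ADAMTS, 5 ADAMTS-like and 4 TIMP genes. The family and the marker lists used below were chosen with earlier results of these data known. A filter on low counts left 38 of the 51 for testing (13 MMP, 16 ADAMTS, 5 ADAMTS-like and 4 TIMP genes), and the other 13 are given as read counts. A gene with reads in 1 group only could pass that filter through that group, so the counts of changed genes below are a description of the 38 and not evidence about the family.

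Whole-skin RNA was sequenced in 9 libraries, 3 from wild-type C57BL/6 mice, 3 from wild-type BALB/c mice and 3 labelled as IL-6 knockout on a C57BL/6 strain. C57BL/6 and BALB/c are inbred laboratory strains, and interleukin-6 (IL-6) is a cytokine of inflammation and tissue repair. Every mouse was acclimated for 2 weeks, entered the study at 6 weeks of age, was shaved on day 0, was left untreated over 7 days and was sampled on day 8, so shaving is shared by all groups. The protocol lists 3 C57BL/6, 3 BALB/c and 6 IL-6 knockout mice and does not tie a library to a mouse, so the p-values reflect only how far these libraries spread, which may be technical. The labels do not say which allele or promoter defines the knockout, nor the sex of the mice.

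The labels were read against the data first. The 3 libraries with the knockout label held 6, 24 and 1 reads of Il6, where C57BL/6 held 2, 1 and 0 and BALB/c held 0, 2 and 0. Reads of Il6 were thus not lacking under that label, and 24 of them came from replicate 2. As the allele is not named, these counts cannot decide whether the label holds. The 3 libraries with that label are therefore called "KO-labelled" throughout, and no direction below is attributed to a loss of IL-6. The X-inactivation RNA Xist reached 130 reads in replicate 2 of BALB/c where no other library passed 5, and replicate 2 of the KO-labelled libraries stood apart from its own group in many members. Counts of called members are therefore also given without each of these 2 libraries, with the value of every member whose call ended.

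MMPs are zinc-dependent endopeptidases that cleave collagens and other matrix proteins and also release or inactivate signalling molecules. Most are made as inactive proenzymes that other proteases must cut. ADAMTS proteases are secreted and act on proteoglycans, on the propeptides of fibrillar collagens or on von Willebrand factor, while ADAMTS-like proteins share the non-catalytic domains but lack a protease domain and bind microfibrils. TIMPs bind the active site of these enzymes. In skin these genes are known for matrix remodelling in wound repair, in inflammation and around the growing hair follicle.

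A group of 10 MMP genes lies within 1 stretch of chromosome 9, from 7272514 to 7699585 (GRCm38), and holds collagenase, stromelysin and macrophage elastase genes. Their promoters are shown because most hold a letter pattern that the windows of the other members lack. RefSeq promoter windows (GRCm38.p6), running from 250 bases before to 50 bases after each start, were matched for 36 of the 51 genes and gave 39 windows. The AP-1 pattern TGANTCA, the site type bound by Jun and Fos proteins and a palindrome that reads alike on both strands, was present in 8 of 12 windows of the cluster (66.7%), in 0 of 27 windows of the other members, and in 7.81% of 32851 promoters of all genes. The TATA-box pattern TATAAA, searched on both strands, was present in 75.0% of cluster windows, 11.1% of the other members' windows and 13.6% of all promoters, and both patterns stood together in 66.7%, 0.0% and 1.54%. The 2 patterns shared no letters. Each line below runs 5′ to 3′ on the plus strand over the 120 bases that end just before the annotated start, and capitals mark AP-1 and TATA-box matches. The coordinates in GRCm38.p6 are chr9:7272394-7272513 for Mmp13, chr9:7445702-7445821 for Mmp3, chr9:7502222-7502341 for Mmp10, chr9:7347254-7347373 for the downstream of the 2 Mmp12 starts, and chr9:7571276-7571395 for Mmp27, which is shown as a cluster gene with neither pattern.
Mmp13: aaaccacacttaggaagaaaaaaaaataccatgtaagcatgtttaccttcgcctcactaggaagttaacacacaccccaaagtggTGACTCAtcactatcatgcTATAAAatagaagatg
Mmp3: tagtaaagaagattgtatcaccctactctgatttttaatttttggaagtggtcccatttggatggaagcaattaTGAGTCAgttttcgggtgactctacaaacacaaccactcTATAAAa
Mmp10: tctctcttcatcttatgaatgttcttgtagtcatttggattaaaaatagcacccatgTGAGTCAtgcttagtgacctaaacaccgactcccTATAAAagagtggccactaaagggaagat
Mmp12: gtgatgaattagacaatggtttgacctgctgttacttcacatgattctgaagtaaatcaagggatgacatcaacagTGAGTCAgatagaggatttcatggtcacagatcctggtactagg
Mmp27: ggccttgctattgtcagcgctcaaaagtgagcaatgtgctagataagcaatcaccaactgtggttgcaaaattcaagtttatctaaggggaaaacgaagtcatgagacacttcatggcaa

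The AP-1 match began 35 bases before the start in Mmp13, 46 in Mmp3, 63 in Mmp10 and 44 in Mmp12, and the Mmp12 window held its TATA-box letters just past the start. The remaining cluster genes with both patterns were Mmp1a (AP-1 letters 73 bases before the start), Mmp1b (93), Mmp20 (95) and Mmp7 (63), all of them at or near 0 reads in this skin. Mmp8 and Mmp27 had no AP-1 match in the window. A match is a string of letters in a window and was not tested as a binding site.

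Levels are TMM-scaled read counts relative to library size (CPM), and between genes they are compared only per kilobase of exon. On that scale the inhibitor Timp2 was the highest member in each group, at a mean of 240 CPM per kb in C57BL/6 and 187 in BALB/c, whereas the KO-labelled libraries had 162. The gelatinase Mmp2 followed at 160, 94.5 and 88.2, then the membrane-type collagenase Mmp14 in C57BL/6 (73.4) and the inhibitor Timp3 (49.3, 32.3 and 38). The lowest tested members in C57BL/6 were the orphan protease Adamts18 at 0.0566 CPM per kb and Adamts6 at 0.231. Members that failed the filter were nearly silent: Mmp21, Mmp1a and Mmp7 had 0 reads in every library, and the highest counts in 1 library were 24 for Mmp10, 9 for Mmp25, 8 for Mmp16, 6 for Adamts3, 5 for Mmp20, 4 for Adamts13 and for Adamts19, 3 for Mmp8, and 1 for Mmp24 and for Mmp1b. In bulk tissue, fewer cells of a type and less RNA per cell cannot be told apart, which holds for each level below.

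**Figure D1:**
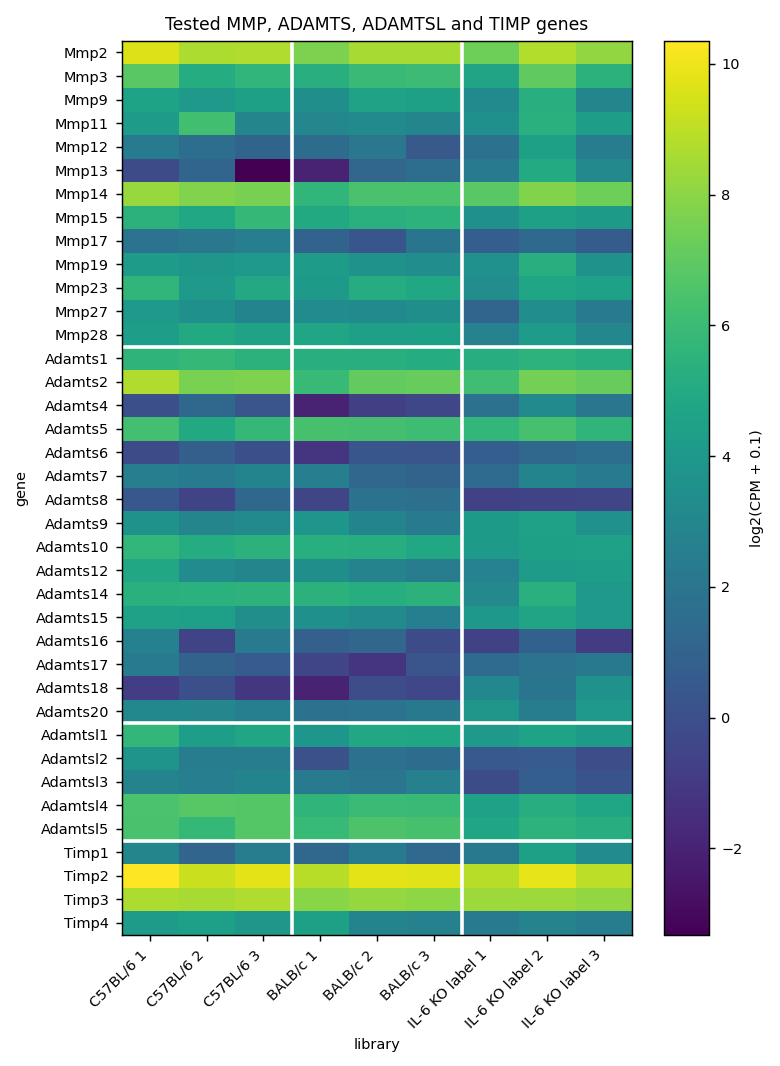
Heat map of the 38 tested genes (rows, grouped as MMP, ADAMTS, ADAMTS-like and TIMP) in 9 libraries (columns); colour is log2 of CPM plus 0.1. Timp2, Mmp2 and Timp3 are the brightest rows, and replicate 2 of the KO-labelled libraries is brighter than replicates 1 and 3 in Mmp3, Mmp9, Mmp12, Mmp13 and Timp1.

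Total exon reads ranged from 3843953 to 6882193 per library and were lower in the KO-labelled libraries than in any other. The tissue makeup also differed between the groups. Skeletal muscle markers (10 of 10 tested) summed to 9320 to 10600 CPM in the KO-labelled libraries, 27400 to 58100 in BALB/c and 57100 to 103000 in C57BL/6. Hair matrix and shaft markers (12 of 12) summed to 16000 to 63200, 9.15 to 21.3 and 12.6 to 662. Neutrophil markers (4 of 11) summed to 29.6 to 78.8, 7.96 to 13.6 and 4.09 to 7.46, and the granule genes Mpo, Elane, Camp, Ngp and Ltf reached at most 8 reads in a library while Ly6g had 0. In the KO-labelled libraries S100a8 (14.5, 28.3 and 16.6 CPM) and S100a9 (10, 33.4 and 9.55) made up most of that sum. Csf3r overlapped between the groups (2.38 to 12, 3.34 to 5.35 and 1.34 to 5.53 CPM), while Cxcr2 did not (1.7 to 5.09, 0.649 to 1.43 and 0 to 0.298). Fibroblast markers (9 of 9) overlapped between the groups, at 5260 to 16900, 4330 to 12000 and 8200 to 51900, and keratinocyte markers (9 of 9) did too. The collagen genes Col1a1, Col1a2 and Col3a1 made up most of each fibroblast sum, with 16000, 17100 and 15900 CPM in C57BL/6 replicate 1.

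**Figure D2:**
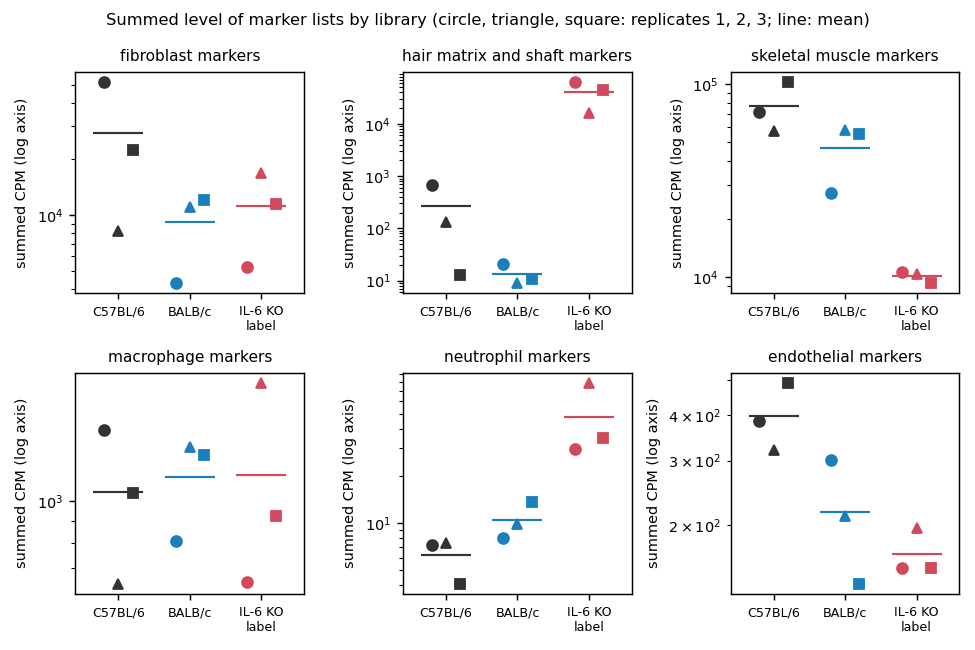
Summed CPM (log axis) of 6 marker lists in each library; symbols are replicates 1, 2 and 3, and the line is the group mean. The KO-labelled libraries lie apart from the others for hair matrix, skeletal muscle and neutrophil markers, and overlap them for fibroblast and macrophage markers.

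Few members passed the test between the 2 wild-type strains. In BALB/c against C57BL/6, edgeR's quasi-likelihood test at a Benjamini-Hochberg adjusted p under 0.05 (the meaning of "called", "higher" and "lower" below) called 2 of 38 members, both lower, or 5.26% against 3.41% of all genes tested (1.63% higher and 1.78% lower). The KO-labelled libraries against C57BL/6 gave 3 higher and 8 lower (28.9%, against 35.2% of all genes, of which 19.2% were higher and 16.0% lower), and against BALB/c 8 higher and 6 lower (36.8%, against 37.3%, of which 19.9% were higher and 17.4% lower). The members were thus called about as often as other genes in each comparison. Their median log2 fold changes were -0.37, -0.5 and 0.06, beside -0.01, 0.01 and 0.01 over all genes. In BALB/c against C57BL/6, 33 members that were not called had a fitted change below 0 and 3 had one above 0. Over all genes tested these numbers were 7103 and 6809. CPM did not overlap between the groups in 10, 14 and 15 members, against 30.2%, 47.5% and 50.7% of all genes. The last 2 comparisons use the same 3 KO-labelled libraries, and each wild-type group enters 2 comparisons, so agreement between them is not independent.

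Without replicate 2 of the KO-labelled libraries, 20 members were called against C57BL/6 (4 higher and 16 lower, against 46.1% of all genes) and 14 against BALB/c (5 higher and 9 lower, against 47.8%). Mmp17, Adamts2 and Adamts16 were among the members gained against C57BL/6. Unless another run is named, "not called" below refers to the fit of all 9 libraries. Without BALB/c replicate 2, neither Mmp14 (-1.75, adjusted p = 0.0706) nor Adamtsl4 (-0.91, adjusted p = 0.107) was called in BALB/c against C57BL/6 (1.21% of all genes were), and 9 members were called in the KO-labelled libraries against BALB/c (4 higher and 5 lower, against 25.8%). The calls that ended in that second comparison were Mmp13, Mmp28, Adamts15, Adamts17 and Timp1, with the values given at each gene below. Those that held were Mmp14 (1.21, adjusted p = 0.0389), Mmp15 (-1.21, adjusted p = 0.0303), Adamts4 (3.68, adjusted p = 0.012), Adamts10 (-0.77, adjusted p = 0.0369), Adamts18 (4.23, adjusted p = 0.00658), Adamts20 (1.57, adjusted p = 0.0429), Adamtsl3 (-2.25, adjusted p = 0.00519), Adamtsl4 (-0.94, adjusted p = 0.0171) and Adamtsl5 (-1.0, adjusted p = 0.0434).

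**Figure D3:**
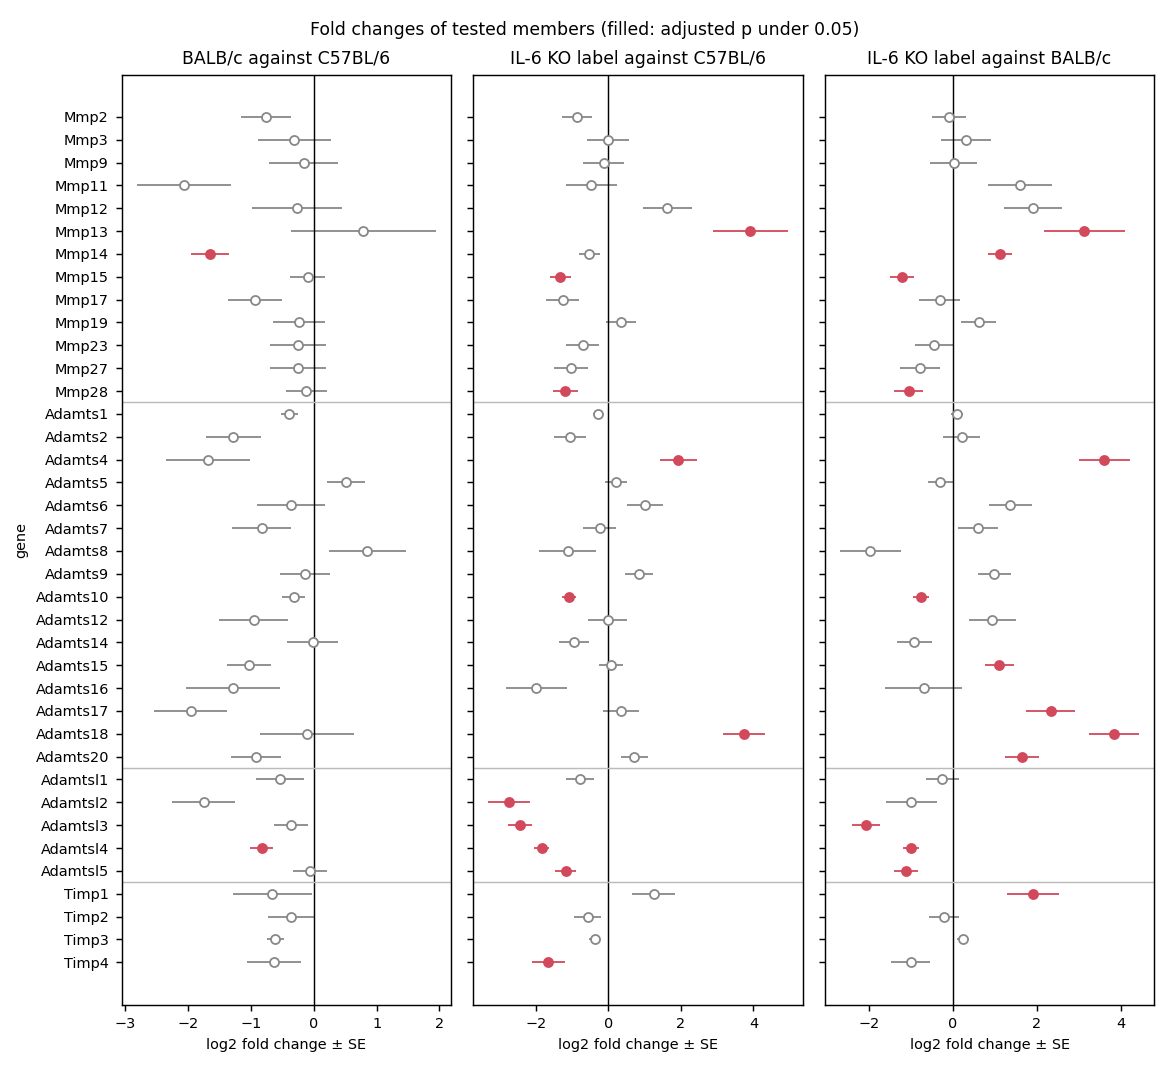
Log2 fold changes ± SE of the 38 tested genes in the 3 comparisons; filled points have an adjusted p under 0.05. In the KO-labelled libraries, Mmp13, Adamts4 and Adamts18 lie to the right and 4 of 5 ADAMTS-like genes to the left against C57BL/6.

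Mmp13, the main interstitial collagenase of rodents, was higher in the KO-labelled libraries. It measured 0.769, 2.09 and 0 CPM in C57BL/6 and 0.159, 2.16 and 2.92 in BALB/c, while the KO-labelled libraries had 4.76, 32.6 and 8.49. Replicate 2 of the last group was far above the other two, yet all 3 lay above each wild-type library. The log2 fold change was 3.92 ± 1.03 (SE) relative to C57BL/6 (adjusted p = 0.0167), and against BALB/c it was 3.13 ± 0.965 (adjusted p = 0.0303). Without replicate 2 it was 2.72 (adjusted p = 0.0432) and 1.93 (adjusted p = 0.106), and the call against BALB/c also ended without any 1 BALB/c library (2.57 to 3.71, adjusted p from 0.0542 to 0.0782, the last without BALB/c replicate 2 at 3.29). The call against C57BL/6 ended without C57BL/6 replicate 1 or 3 (adjusted p = 0.0618 and 0.056).

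Of the other genes of the chromosome 9 cluster, Mmp12, Mmp3 and Mmp10 were also highest in replicate 2. Mmp12 and Mmp3 were not called, and Mmp10 did not enter the main fit. Macrophage elastase, Mmp12, measured 3.44, 21.4 and 5.52 CPM in the KO-labelled libraries, where C57BL/6 had 2.04 to 4.77 and BALB/c 1.3 to 4.16. Its log2 fold change of 1.63 against C57BL/6 (adjusted p = 0.0869) was 0.45 without replicate 2 (adjusted p = 0.497). Against BALB/c it was 1.91 (adjusted p = 0.0539), and 0.73 without replicate 2 (adjusted p = 0.278). That second difference was called in 5 of 18 alternatives. Stromelysin-1, Mmp3, which cuts proteoglycans and can activate other proenzymes, measured 25.1, 130 and 44.2 CPM beside 35.2 to 114 in C57BL/6 and 37.6 to 65.5 in BALB/c, so the groups overlapped fully. Stromelysin-2, Mmp10, was below the filter with 3, 24 and 5 reads, against 0, 0 and 1 in C57BL/6 and 2, 2 and 2 in BALB/c. With no filter its fitted difference from C57BL/6 had an adjusted p of 0.006 and that from BALB/c of 0.033. The enamel protease Mmp20 had 5, 0 and 1 reads in the KO-labelled libraries and 0 elsewhere, which with no filter was not called (adjusted p = 0.155 and 0.15). Mmp8, the neutrophil collagenase, had at most 3 reads in a library. Mmp27, a little-studied member, went the other way at 2.12, 10.2 and 4.88 CPM against 7.06 to 16.9 in C57BL/6, and was not called (-1.03 ± 0.475, adjusted p = 0.121).

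In replicate 2, the library that was highest in Mmp13, Mmp12, Mmp3 and Mmp10, macrophage markers summed to 1860 CPM against 651 and 923 in replicates 1 and 3, and neutrophil markers to 78.8 against 29.6 and 34.8. The neutrophil sums were mostly S100a8 and S100a9, and Csf3r was not called in the KO-labelled libraries against C57BL/6 (adjusted p = 0.171) or BALB/c (adjusted p = 0.388). Markers of other cell types were also highest in that library within the group: keratinocyte markers summed to 27500 CPM against 10600 and 13300, fibroblast markers to 16900 against 5260 and 11400, and adipocyte markers to 1820 against 731 and 452. Over all libraries the macrophage sum ranged from 646 to 1450 CPM in C57BL/6 and from 807 to 1330 in BALB/c. The part of any of these cells in the collagenase and stromelysin values was not tested.

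**Figure D4:**
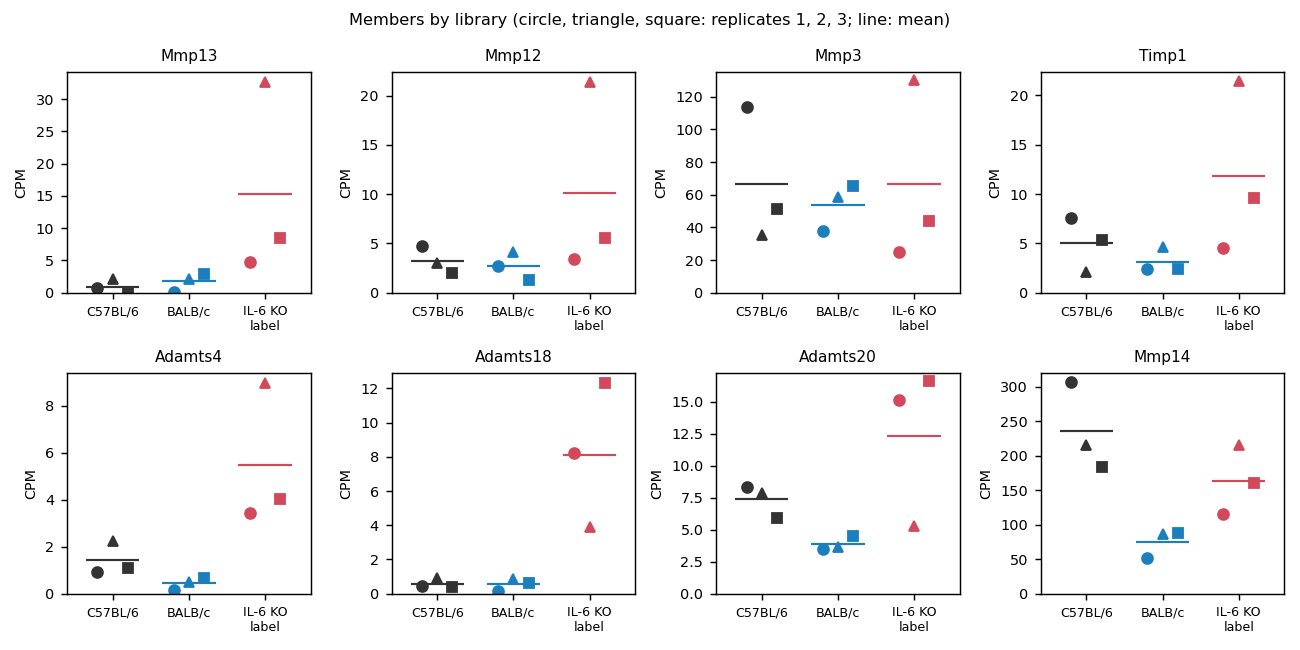
CPM of 8 genes in each library; circle, triangle and square are replicates 1, 2 and 3, and the line is the group mean. In the KO-labelled libraries the triangle is the highest point for Mmp13, Mmp12, Mmp3, Timp1, Adamts4 and Mmp14, and the lowest for Adamts18 and Adamts20.

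The gelatinases, which degrade denatured and basement membrane collagen, were not called in any comparison. Mmp2, which stromal cells make and Mmp14 activates, measured 780, 415 and 424 CPM in C57BL/6 and 204, 374 and 378 in BALB/c, whereas the KO-labelled libraries had 161, 445 and 286. The lowest C57BL/6 library thus lay above every BALB/c library, but the log2 fold change of -0.76 ± 0.402 had an adjusted p of 0.336. Mmp9, typical of leukocytes and migrating keratinocytes, measured 9.26, 39.7 and 7.64 CPM in the KO-labelled libraries and 17 to 24 in C57BL/6. Its high value in replicate 2 and low values in the other two left a fold change near 0 (-0.13 ± 0.555, adjusted p = 0.874).

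Membrane-bound MMPs gave 1 called gene between the wild-type strains. Mmp14, the membrane-type collagenase that activates pro-Mmp2, measured 307, 216 and 184 CPM in C57BL/6 and 51.6, 86.8 and 87.4 in BALB/c, while the KO-labelled libraries had 115, 216 and 160. All BALB/c libraries were below all others. edgeR gave a log2 fold change of -1.65 ± 0.298 in BALB/c against C57BL/6 (3.13-fold lower, adjusted p = 0.0188) and 1.12 ± 0.295 in the KO-labelled libraries against BALB/c (adjusted p = 0.016). Without C57BL/6 replicate 1 or any 1 BALB/c library the strain difference stayed between -1.77 and -1.4 but was no longer called (adjusted p from 0.0626 to 0.0731), and the second call ended without BALB/c replicate 1 (0.88, adjusted p = 0.0556). The summed fibroblast markers, mostly Col1a1, Col1a2 and Col3a1, were uneven too, at 51900, 8200 and 22300 CPM in C57BL/6 and 4330, 11100 and 12000 in BALB/c. Dcn, a marker outside those collagens, overlapped at 1630, 939 and 1170 CPM in C57BL/6 and 703, 1380 and 1290 in BALB/c. Of the 9 fibroblast markers, 0 were called between the strains. Their part in the Mmp14 values was not tested.

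Mmp15, a second transmembrane MMP, was lower in the KO-labelled libraries. It measured 43.4, 28.8 and 55 CPM in C57BL/6 and 32, 41.2 and 45.3 in BALB/c, whereas the KO-labelled libraries had 11.4, 21.6 and 17.6, with no overlap. Its fitted log2 difference was -1.32 ± 0.286 against C57BL/6 (adjusted p = 0.00706), and relative to BALB/c it was -1.22 ± 0.286 (adjusted p = 0.00985), and both were called in every alternative run. Mmp17, anchored to the membrane by a lipid, had 1.49 to 2.44 CPM there and 3.54 to 5.57 in C57BL/6 (-1.26 ± 0.458, adjusted p = 0.0581), without overlap but not called, and -1.53 without replicate 2 (adjusted p = 0.0452). Mmp23 ranged from 10.3 to 50.6 CPM over all 9 libraries and was not called. The leukocyte protease Mmp25 and the membrane-type Mmp16 and Mmp24 were too rare to test.

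Among the remaining MMPs, epilysin, Mmp28, an enzyme of keratinocytes and other epithelia, was lower in the KO-labelled libraries. It measured 20.6, 31.5 and 23.4 CPM in C57BL/6 and 26.4, 21.3 and 21.7 in BALB/c, while the KO-labelled libraries had 6.61, 18.3 and 7.85. Even the high replicate 2 lay below every wild-type library. The log2 fold change was -1.19 ± 0.346 relative to C57BL/6 (adjusted p = 0.0255), and against BALB/c it was -1.06 ± 0.346 (adjusted p = 0.0369), and without replicate 2 it was -1.79 (adjusted p = 0.000572) and -1.67 (adjusted p = 0.000786). Leaving out 1 of several other libraries ended the calls, with adjusted p up to 0.0976 against C57BL/6 and 0.133 against BALB/c, and without BALB/c replicate 2 the difference from BALB/c was -1.14 (adjusted p = 0.0662). Mmp28 shares 466 exon bases with 1700020L24Rik of the opposite strand, which had at most 45 reads in a library. Whether the counting used strand is not given in the sources used here, so for any member the reads of a gene overlapping it on the other strand cannot be told apart from its own. Mmp19 measured 11.9, 37.9 and 12.7 CPM in that group and 10.5 to 18 in the others, and Mmp11, a stromelysin of stroma near epithelium, 74.7 CPM in C57BL/6 replicate 2 and 7.24 to 40.5 elsewhere. Neither was called.

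Of the 7 ADAMTS genes that encode proteoglycan-cleaving enzymes, Adamts4, an aggrecanase, differed most. It measured 0.922, 2.24 and 1.11 CPM in C57BL/6 and 0.159, 0.499 and 0.649 in BALB/c, whereas the KO-labelled libraries had 3.44, 8.96 and 4.03, so the 3 groups did not overlap. In reads, that was 6, 15 and 6, then 1, 3 and 4, then 13, 44 and 19. On the log2 scale the difference was 3.61 ± 0.609 against BALB/c (12.2-fold, adjusted p = 0.00215), called in every alternative run. Against C57BL/6 it was 1.93 ± 0.515 (adjusted p = 0.0178), and the call ended without C57BL/6 replicate 1 or 3 (adjusted p = 0.0715 and 0.0723).

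Adamts20, known from the belted pigment mutants of the mouse, and Adamts15, which cleaves aggrecan and versican, were called only against BALB/c, which is not a test that the 2 contrasts differ. Adamts20 measured 8.3, 7.9 and 5.94 CPM in C57BL/6 and 3.5, 3.66 and 4.54 in BALB/c, while the KO-labelled libraries had 15.1, 5.29 and 16.6, where replicate 2 was the low library. The log2 fold change against BALB/c was 1.65 ± 0.398 (adjusted p = 0.0112), 2.01 without replicate 2 (adjusted p = 0.000232), and 1.36 without replicate 3, where it was not called (adjusted p = 0.0517). Adamts15 measured 22.6, 21.2 and 10.6 CPM, then 11.5, 9.31 and 5.84, then 15.3, 25 and 16.8 in the same order of groups. Its log2 fold change against BALB/c was 1.11 ± 0.349 (adjusted p = 0.0333), 0.85 without replicate 2 of the KO-labelled libraries (adjusted p = 0.083) and 1.12 without BALB/c replicate 2 (adjusted p = 0.0831).

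The other 4 genes of that class were not called. Adamts1, an early-response aggrecanase and versicanase, kept a narrow range, 35.4 to 54.3 CPM over the 9 libraries. The aggrecanase Adamts5 ranged from 31.2 to 83.7 CPM. Adamts9, a widely expressed versicanase, measured 17.7, 22.2 and 12.1 CPM in the KO-labelled libraries, against 7.46 to 12.3 in C57BL/6 (0.85 ± 0.386, adjusted p = 0.115). Adamts8 had 0.529 to 3.33 CPM, and only 31.6% of its reads were uniquely mapped.

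Adamts18, a protease whose loss affects the eye and branching epithelia in mice, had one of the largest fold changes of the family. It measured 0.461, 0.895 and 0.371 CPM in C57BL/6 and 0.159, 0.831 and 0.649 in BALB/c, whereas the KO-labelled libraries had 8.2, 3.87 and 12.3. Each library of the last group was above all wild-type libraries, and replicate 2 was the lowest of them. edgeR gave a log2 fold change of 3.74 ± 0.591 against C57BL/6 (13.4-fold, adjusted p = 0.00164), and relative to BALB/c it was 3.85 ± 0.598 (14.4-fold, adjusted p = 0.00149), called in every alternative run. Intron reads of the gene summed to 3 in C57BL/6 and 3 in BALB/c, while the KO-labelled libraries had 28.

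Hair matrix and shaft markers were also lowest in replicate 2, with 63200, 16000 and 45100 CPM in replicates 1, 2 and 3 of the KO-labelled libraries. Of the 12 markers, 12 were higher there against each wild-type group. Melanocyte markers (5 of 6 tested, 5 of 5 higher) summed to 713, 63.9 and 811 CPM there, against 14.9 to 22.4 in C57BL/6 and 8.65 to 15.6 in BALB/c. The part of hair follicle cells in the Adamts18 and Adamts20 values was not tested.

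The other called ADAMTS genes were Adamts17 and Adamts10, which are linked to microfibrils and to short stature syndromes. Adamts17 measured 4.92, 1.94 and 1.49 CPM in C57BL/6 and 0.637, 0.333 and 1.14 in BALB/c, whereas the KO-labelled libraries had 2.64, 3.66 and 4.46, so BALB/c was the low group. The log2 fold change in the KO-labelled libraries against BALB/c was 2.33 ± 0.588 (adjusted p = 0.0135), and 1.98 without BALB/c replicate 2 (adjusted p = 0.0547). Adamts10 moved the opposite way, at 52.3, 35.3 and 44.2 CPM in C57BL/6 and 39.3, 36.4 and 29.8 in BALB/c, while the KO-labelled libraries had 16.9, 21.8 and 22.9. The log2 differences of -1.09 ± 0.191 from C57BL/6 (adjusted p = 0.00264) and of -0.77 ± 0.191 from BALB/c (adjusted p = 0.0124) were called in every alternative run.

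Procollagen N-propeptidases, which trim new fibrillar collagens, were not called. Adamts2, the main enzyme of this kind in skin, measured 428, 192 and 209 CPM in C57BL/6 and 62.7, 134 and 145 in BALB/c, whereas the KO-labelled libraries had 70.9, 181 and 144. C57BL/6 lay above both other groups without overlap, but BALB/c gave a log2 fold change of -1.28 ± 0.442 (adjusted p = 0.159), while the KO-labelled libraries gave -1.06 ± 0.441 (adjusted p = 0.088), and neither passed. Without replicate 2 of the KO-labelled libraries the latter was -1.36 (adjusted p = 0.0486). Col1a1, a chain of its main substrate and a fibroblast marker, was likewise highest in C57BL/6 replicate 1 at 16000 CPM and ranged from 503 to 6450 CPM elsewhere. Adamts14 measured 8.73 and 16.1 CPM in replicates 1 and 3 of the KO-labelled libraries, with 41.1 in replicate 2 and 37.1 to 45.3 in the wild-type libraries, and was not called. Adamts3 had 4, 5 and 6 reads in the KO-labelled libraries, 0, 2 and 0 in BALB/c and 0 in every C57BL/6 library. Scaled by library size, the KO-labelled reads were 7.65-fold a floor of 3 reads set for the C57BL/6 group. That ratio leaves out the uncertainty of so few reads (adjusted p = 0.0131 with no filter).

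Among ADAMTS genes outside these classes, Adamts7 and Adamts12, which cleave cartilage oligomeric matrix protein, ranged from 1.95 to 7.13 and from 5.51 to 28.3 CPM and were not called. Adamts6 measured 1.59 to 2.97 CPM in the KO-labelled libraries and 0.318 to 1.16 in BALB/c (1.37 ± 0.518, adjusted p = 0.0627). Adamts16 ranged from 0.425 to 6.46 CPM and was not called, but without replicate 2 of the KO-labelled libraries it was lower there than in C57BL/6 (-2.98, adjusted p = 0.0491). Adamts13, which cuts von Willebrand factor, had 0 reads in C57BL/6 and 1, 3 and 2 in BALB/c, while the KO-labelled libraries had 3, 2 and 4. The KO-labelled reads were 4.59-fold the same floor of 3 reads for the C57BL/6 group, again without the uncertainty of so few reads (adjusted p = 0.0184 with no filter).

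Of the 4 gene classes, the ADAMTS-like genes had the largest share lower in the KO-labelled libraries, with 4 of 5 lower against C57BL/6 and 3 of 5 against BALB/c, beside 16.0% and 17.4% of all genes lower. Adamtsl4, which binds fibrillin-1 and is known from lens dislocation, measured 90.1, 110 and 108 CPM in C57BL/6 and 48.6, 65 and 59.4 in BALB/c, whereas the KO-labelled libraries had 22.7, 36.6 and 26.1. The 3 groups lay in 3 separate ranges. The log2 fold change was -1.84 ± 0.195 relative to C57BL/6 (adjusted p = 0.000462), and against BALB/c it was -1.01 ± 0.193 (adjusted p = 0.0039), called in every alternative run. In BALB/c against C57BL/6 it was -0.83 ± 0.186 (adjusted p = 0.0456), a call that ended in 9 of 18 alternatives, among them each one that left out a wild-type library (-0.91 to -0.71, adjusted p from 0.0882 to 0.147). Intron reads of Adamtsl4 summed to 339 in C57BL/6 and 152 in BALB/c, while the KO-labelled libraries had 42.

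Adamtsl3 had 6.92, 5.67 and 7.06 CPM in C57BL/6 and 5.09, 3.99 and 6.16 in BALB/c, whereas the KO-labelled libraries had 0.793, 1.63 and 1.06. That was a log2 fold change of -2.44 ± 0.336 (adjusted p = 0.000953) and -2.08 ± 0.34 (adjusted p = 0.00183), called in every alternative run. Adamtsl2, known from geleophysic dysplasia and from binding latent TGF-beta binding protein, measured 13.4, 5.52 and 5.38 CPM in C57BL/6 and 0.955, 3.49 and 2.76 in BALB/c, while the KO-labelled libraries had 1.32, 1.43 and 0.849. C57BL/6 was the high group, and the fold change of -2.74 ± 0.573 (adjusted p = 0.0059) held in every alternative run, while the one against BALB/c did not pass (-0.99 ± 0.618, adjusted p = 0.233). Adamtsl5 measured 84.5, 55.8 and 108 CPM in C57BL/6 and 61.3, 93.8 and 82.2 in BALB/c, whereas the KO-labelled libraries had 26.7, 45.6 and 36.7. Its differences of -1.18 ± 0.277 (adjusted p = 0.0101) and -1.12 ± 0.277 (adjusted p = 0.0124) were also called in every alternative run. Adamtsl1 overlapped between groups (14.6 to 54.1 CPM) and was not called.

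Skeletal muscle markers moved with the lower ADAMTS-like genes: of 10, 10 were lower against C57BL/6 and 9 against BALB/c. Pericyte and smooth muscle markers (6 of 6 tested) summed to 641 to 722 CPM in the KO-labelled libraries, 1190 to 2500 in BALB/c and 2240 to 3190 in C57BL/6, with 4 and 3 of 6 lower. Most of that sum was the desmin gene Des, at 398 to 465, 816 to 2180 and 1780 to 2590 CPM in the same order. Of the other markers, Acta2 (-0.48 against C57BL/6 and 0.67 against BALB/c) and Tagln (0.15 and 0.85) were not called in the KO-labelled libraries. Endothelial markers (8 of 8 tested) summed to 152 to 196, 138 to 301 and 320 to 490 CPM, with 7 and 1 of 8 lower. Their part in the ADAMTS-like, Mmp15, Adamts10 and Timp4 values was not tested.

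**Figure D5:**
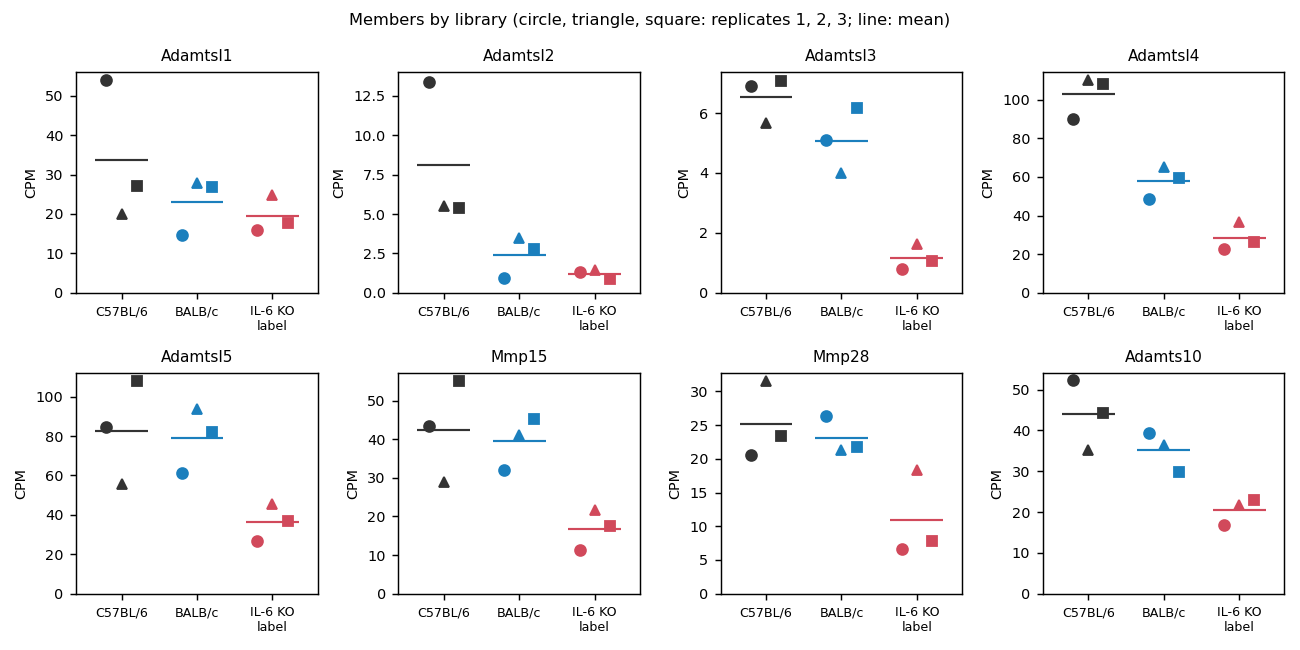
CPM of the 5 ADAMTS-like genes, Mmp15, Mmp28 and Adamts10 in each library; circle, triangle and square are replicates 1, 2 and 3, and the line is the group mean. All 3 KO-labelled libraries lie below all 6 wild-type libraries for Adamtsl3, Adamtsl4, Adamtsl5, Mmp15, Mmp28 and Adamts10.

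Of the 4 inhibitors, Timp1 and Timp4 were called in 1 comparison each. Timp1, the inducible inhibitor, measured 7.53, 2.09 and 5.38 CPM in C57BL/6 and 2.39, 4.66 and 2.43 in BALB/c, while the KO-labelled libraries had 4.5, 21.4 and 9.55. Replicate 1 of the last group overlapped both wild-type groups. It differed by a log2 fold change of 1.91 ± 0.615 against BALB/c (adjusted p = 0.0355) and 1.25 ± 0.59 against C57BL/6 (adjusted p = 0.126). The call against BALB/c ended in 7 of 18 alternatives, among them without replicate 2 (1.17, adjusted p = 0.119), without BALB/c replicate 2 (2.28, adjusted p = 0.0521) and with the replicate number as a block (1.85, adjusted p = 0.0657).

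Timp4, an inhibitor of muscle, heart and fat, measured 18.6, 21.3 and 15 CPM in C57BL/6 and 22.1, 6.98 and 6.33 in BALB/c, whereas the KO-labelled libraries had 5.02, 6.92 and 5.52. BALB/c replicate 1 was at the C57BL/6 level and the other BALB/c libraries near the KO-labelled level. The log2 fold change against C57BL/6 was -1.65 ± 0.462 (adjusted p = 0.0219), and without C57BL/6 replicate 1 it was -1.65 again (adjusted p = 0.0505). By the deposited Expression value column it was -0.38 (adjusted p = 0.625), and 37% of Timp4 reads were uniquely mapped. The gene lies inside Syn2 and shares 90 exon bases with it on the opposite strand, where Syn2 had at most 23 reads in a library. Adipocyte markers (6 of 6 tested) likewise summed to 4770 CPM in BALB/c replicate 1, 1590 and 1630 in the other BALB/c libraries, 1910 to 3080 in C57BL/6 and 452 to 1820 in the KO-labelled libraries, and their part in the Timp4 values was not tested.

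Timp3, which is held in the matrix and inhibits ADAMTS and ADAM proteases as well, measured 403, 383 and 417 CPM in C57BL/6 and 239, 293 and 257 in BALB/c, while the KO-labelled libraries had 327, 324 and 278. C57BL/6 was above both other groups without overlap, by a log2 difference of -0.61 ± 0.141 in BALB/c (adjusted p = 0.0503), while the KO-labelled libraries gave -0.38 ± 0.141 (adjusted p = 0.0644), neither called. By the deposited Expression value column the second difference turned to 3.34, and 7% of Timp3 reads were uniquely mapped. Timp2, an inhibitor that also takes part in pro-Mmp2 activation, ranged from 467 to 1310 CPM and was not called.

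Related genes from other lists gave a background for these values. In the ADAM family of membrane sheddases, 11 of 12 genes were tested, and Adam33 was lower in BALB/c (15.3 ± 4.14 CPM, SD, n = 3) and in the KO-labelled libraries (20.2 ± 2.61) than in C57BL/6 (56.4 ± 7.35), by -1.88 ± 0.213 (adjusted p = 0.00165) and -1.48 ± 0.212 (adjusted p = 0.00113). Adam10, the main sheddase of Notch and cadherins, was higher in the KO-labelled libraries against C57BL/6 (0.62 ± 0.166, adjusted p = 0.0183) and BALB/c (0.53 ± 0.165, adjusted p = 0.0316), the latter not called without BALB/c replicate 2 (0.56, adjusted p = 0.0715). Among 20 tested activators and other matrix proteases, 6 were higher and 3 lower in the KO-labelled libraries against C57BL/6, and 6 higher and 4 lower against BALB/c. That was 45% and 50% called, against 35.2% and 37.3% of all genes. Without replicate 2 of the KO-labelled libraries the counts were 5 and 5, then 5 and 6, where 46.1% and 47.8% of all genes were called. The epithelial serine proteases Prss8 (67.5 ± 15.3 CPM against 22.3 ± 3.47 in C57BL/6, adjusted p = 0.000531) and St14 (235 ± 109 against 60.5 ± 14.8, adjusted p = 0.00249) had the smallest p-values of the higher genes. The hepsin gene Hpn (1.39 ± 0.321 against 4.46 ± 0.687, adjusted p = 0.00574) and the proprotein convertase gene Pcsk6 (69.1 ± 11.4 against 99.3 ± 6.54, adjusted p = 0.0157) had the smallest of the lower ones.

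Other inhibitors and cofactors gave 3 of 11 lower and 0 higher in the KO-labelled libraries against C57BL/6, and 2 of 11 lower against BALB/c. That was 27.3% and 18.2% called, against 35.2% and 37.3% of all genes. Without replicate 2 of the KO-labelled libraries 7 and 3 were lower (46.1% and 47.8% of all genes were called). Without BALB/c replicate 2 it was 2 and 0, where 25.8% of all genes were called against BALB/c. Spock2, a testican that modulates MMP activation, measured 7.78 ± 5.08 CPM against 28.5 ± 1.92 (adjusted p = 0.00424) and was also lower in BALB/c (6.29 ± 1.07, adjusted p = 0.0127), a call that ended without BALB/c replicate 2 (-2.21, adjusted p = 0.0651). The protease nexin gene Serpine2 was next (37.9 ± 4.15 against 79 ± 37, adjusted p = 0.0362). Of 21 tested substrates, 4 were higher and 3 lower in the KO-labelled libraries against C57BL/6, and 7 higher and 0 lower against BALB/c. That was 33.3% called in each, against 35.2% and 37.3% of all genes. With replicate 2 of the KO-labelled libraries left out the counts were 4 and 5, then 6 and 2, beside 46.1% and 47.8% of all genes called. The hyaluronan receptor Cd44 measured 210 ± 28.1 CPM against 79.9 ± 5.13 in C57BL/6 (adjusted p = 0.000429), and Thbs1, the thrombospondin-1 gene, 144 ± 39.7 against 38.4 ± 7.62 (adjusted p = 0.000568). The lower substrates with the smallest p-values were Vwf, an endothelial gene (23.4 ± 5.34 against 67.1 ± 16.1, adjusted p = 0.00198), and Col17a1, a basement membrane collagen of keratinocytes (443 ± 299 against 1170 ± 247, adjusted p = 0.0235).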

How the data were processed

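Reads were mapped to GRCm38, per the submitters' processing notes; the aligner is not given in the sources used here. Per the file headers, the authors deposited 1 gene table per library with raw counts (total exon reads, whole numbers). They also deposited RPKM values, which divide by a library total that equals total gene reads in the KO-labelled tables and a larger number in the others, so RPKM was not used. The Expression value column also followed another rule in the KO-labelled tables. These differences fall wholly between the KO-labelled and wild-type groups, so any effect of table processing on the counts cannot be told apart from the group differences. The file of C57BL/6 replicate 1 holds 3 stacked tables, of which the first was used.

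Counts of 14415 genes that passed filterByExpr (minimum count 10, minimum total 15) were fitted in edgeR 4.0.16 (R 4.3.3) with TMM scaling (factors 0.887 to 1.1), all 9 libraries and 3 groups in 1 model with 6 residual degrees of freedom. The quasi-likelihood F test was adjusted by Benjamini-Hochberg over all genes tested, at 0.05. The SE is the log2 fold change divided by the square root of F. The common dispersion was 0.0524. In simulated data for the KO-labelled libraries against C57BL/6 (14415 genes), 100 genes were changed 2-fold, 100 were changed 4-fold and the rest not at all. The test called 26 and 74 of them. In the real comparison 35.2% of all genes were called, which makes the Benjamini-Hochberg cutoff less strict. The simulated shares therefore do not give the sensitivity of that comparison.

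Members and gene lists were chosen with earlier results of these data known. Full values are given for each member called in any comparison; others are given by range; for other lists, up to 2 called genes with the smallest p per direction are named, here in the KO-labelled libraries against C57BL/6. Alternatives were RLE or library-size scaling, no filter, DESeq2 1.42.0, a replicate block, fits of only the groups compared, a robust variance model, the deposited Expression value column, each library left out, and uniquely mapped exon reads, the last chosen after seeing the data. Promoters came from RefSeq (GRCm38.p6) and gene overlaps from GENCODE vM21. Exon overlaps with other genes are given for some members, and 1 is not reported here.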

Additional observations from a re-analysis of the deposited data

How the results depend on the processing

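Of 27 called member comparisons, 14 were called in every alternative run and 0 changed sign. Members called in BALB/c against C57BL/6 numbered 2, 1 with library-size scaling and 5 with DESeq2, and 0 to 4 over single libraries left out. In the KO-labelled libraries they numbered 11 against C57BL/6 (8 to 20 over libraries left out) and 14 against BALB/c (9 to 15). Over all genes, the count for BALB/c against C57BL/6 was 491, with 1033 by DESeq2 and 167 to 977 over libraries left out; the other comparisons ranged from 3238 to 6806 and from 3310 to 7044. With the replicate number as a block, 2, 11 and 15 members were called, and 255 genes in BALB/c against C57BL/6. Adamts9 (1.07, adjusted p = 0.0391) and Mmp12 (1.78, adjusted p = 0.0475) were gained against BALB/c and Timp1 was lost. Same-numbered libraries did not deviate together (correlations from -0.197 to 0.0601), so the numbers were not taken as pairs. The sign of a member comparison was followed over the alternatives only where it was called or near the threshold. Among these the 1 reversal was Timp3 in the KO-labelled libraries against C57BL/6. It was -0.38 by total exon reads and 3.34 by the Expression value column. That column matched total exon reads in each row of the KO-labelled tables and in 88.7% to 89.5% of rows elsewhere. Of the Timp3 reads, 7% were uniquely mapped. By the same column Timp4 was -0.38 (adjusted p = 0.625), with 37% of its reads uniquely mapped. Library-size scaling moved the median of all genes from 0.011 to 0.152 in the KO-labelled libraries against C57BL/6, and the share of calls that were higher from 54.6% to 67.8%; in BALB/c against C57BL/6 that share went from 47.9% to 58.8%. With no filter, Mmp10, Adamts3 and Adamts13 were gained against C57BL/6. Depth limits Adamts4, Adamts6 and Adamts18, which had at most 15, 11 and 6 reads in a wild-type library.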

Other observations

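Over the 9 libraries, the genes whose log2 CPM was most like that of Adamtsl4 were Ephx1, Tcea3, Kif13a and Clstn1 (Pearson r = 0.986 each) and Hsdl1 (0.985). For Adamts18 they were BC022687 and Cbfb (0.987), Scnn1g (0.983), and Ddx21 and Tiam2 (0.982). For Adamtsl3 they were Phospho1 (0.984), Cldn19 (0.982), Stradb and Dst (0.981) and Mag (0.98). These are descriptions over 3 groups whose means differ, chosen as the highest of all genes tested.

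Intron reads of Adamts13 summed to 2 in C57BL/6, 30 in BALB/c, and the KO-labelled libraries had 10, and those of Mmp27 to 93, 86 and 19.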
